A study of Mus musculus with 2 samples.

Results

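A set of 10 mucins was chosen by name (Muc1, Muc2, Muc4, Muc5ac, Muc5b, Muc6, Muc13, Muc15, Muc16 and Muc20), and 9 of them were found by gene identifier among 43346 Ensembl genes in the tables. The rule goes by gene names and uses no measured value, but the members were chosen with earlier results of these data known. Mucins are large glycoproteins whose serine, threonine and proline rich stretches carry dense O-linked sugars. The gel-forming mucins (Muc2, Muc5ac, Muc5b and Muc6) are secreted, join into polymers through cysteine-rich ends and make mucus. Membrane mucins are anchored in the apical surface of epithelial cells, where they form a sugar-rich coat, and some take part in signalling. In the adult stomach, Muc5ac is the classical product of surface mucous cells, Muc6 that of neck and gland cells, and Muc1 a membrane mucin of the gastric surface, while Muc2 is the main mucin of intestinal goblet cells.

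The RNA was total RNA longer than 200 nt, 10 ng per library, from whole stomachs of B6NCrl mouse pups on postnatal day 0. One stomach was taken from each of 2 pups of 1 dam; the labels name no altered gene and no treatment, and sex was not collected. The design holds 1 group with n = 2, so it offers no test between conditions: levels are given as mean ± SD over the pups, and the pups are set beside each other as pup 1 over pup 2. The depth was 51524479 expected counts for pup 1 and 49983574 for pup 2, at which 3 reads correspond to 0.0582 and 0.0600 CPM (reads scaled to the library total). In bulk tissue, fewer cells of a type and less RNA per cell cannot be told apart.

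Levels are in TPM, a measure of transcript abundance that divides reads by transcript length and so allows genes to be compared. Detection meant 1 TPM or more in each of the pups. By that rule 7 of the 9 mucins were detected, against 61.2% of 21461 nuclear protein-coding genes. Muc1 and Muc5b, 2 of the 9, stood at 100 TPM or more in both pups, a level reached by 5.82% of protein-coding genes. The median of the mean TPM was 5.97 over the 9 mucins and 3.60 over all protein-coding genes.

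The most abundant mucin transcript was that of the membrane mucin Muc1, whose ectodomain carries tandem repeats and whose short cytoplasmic tail binds signalling proteins. Muc1 (ENSMUSG00000042784.5, chr3:89229057-89233381, plus strand, mm10) had 186 TPM in pup 1 and 223 TPM in pup 2, a mean of 204 ± 25.9 (SD, n = 2). These came from 13385 and 15406 reads. It ranked 645 among the 21461 protein-coding genes. Muc5b, the gel-forming mucin best known from airways, submucosal glands and saliva, followed with 114 TPM in pup 1 and 105 in pup 2 (109 ± 6.68, SD, n = 2), at rank 1171. Muc5b (ENSMUSG00000066108.7, chr7:141839070-141873084, plus strand) rested on 70158 reads in pup 1 and 61837 in pup 2, the highest counts of the 9 mucins. Both genes were therefore measured far above the depth limit, and Muc6, next in the order, stood 10.2-fold below Muc5b in mean TPM.

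The mucins that are classical in the adult stomach were lower. Muc6, the gland mucin (ENSMUSG00000048191.11, chr7:141633456-141655319, minus strand), had 11.7 TPM in pup 1 and 9.68 in pup 2 (10.7 ± 1.44, SD, n = 2; 4005 and 3156 reads). Muc5ac, the surface cell mucin (ENSMUSG00000037974.11, chr7:141788972-141819231, plus strand), had 2.51 TPM in pup 1 and 2.89 in pup 2 (2.70 ± 0.269; 1029 and 1160 reads). Within each pup Muc5b thus stood 45.5-fold (pup 1) and 36.2-fold (pup 2) above Muc5ac in TPM, and 9.75-fold and 10.8-fold above Muc6. Muc6 stood 4.67-fold and 3.35-fold above Muc5ac.

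Muc13, Muc15 and Muc4, all membrane mucins, were detected at lower levels than Muc1. Muc13 (ENSMUSG00000022824.8, chr16:33794037-33819934, plus strand), a transmembrane mucin of the gut lining, had 9.09 TPM in pup 1 and 7.51 in pup 2 (8.30 ± 1.12, SD, n = 2). Of its 100-base sequence windows, 3.28% also occur in the annotated gene Gm15657, so a small part of its reads could be assigned to either. Muc15 (ENSMUSG00000050808.9, chr2:110721340-110739527, plus strand), a membrane-bound mucin, had 5.80 TPM in pup 1 and 6.14 in pup 2 (5.97 ± 0.240). Muc4 (ENSMUSG00000079620.9, chr16:32735886-32782391, plus strand), a very large membrane mucin known to bind the receptor Erbb2, had 2.11 TPM in pup 1 and 2.42 in pup 2 (2.27 ± 0.219), from 316 and 290.84 expected counts. The values of the pups did not overlap between any of these genes.

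Muc20 and Muc2 lay below 1 TPM in both pups. Muc20 (ENSMUSG00000035638.10, chr16:32777419-32797435, minus strand), a small membrane mucin known in human cells to interact with the receptor MET, had 0.44 TPM in pup 1 and 0.52 in pup 2, from 40 and 46.16 expected counts. Muc2 (ENSMUSG00000025515.11, chr7:141690340-141754693, plus strand) had 0.19 TPM in pup 1 and 0.34 in pup 2. Its 12 reads in pup 1 had an exact Poisson 95% interval of 6.20 to 20.96, and its 21 reads in pup 2 one of 13.0 to 32.1; these intervals cover counting error only, since the reads were not tagged as separate molecules in the tables. The Muc2 value depends on the estimate. The annotation splits the gene into 8 short models, whose part in this was not tested. The authors' posterior mean TPM was 0.60 in pup 1 and 0.76 in pup 2, and the deposited lower bounds (0.239 and 0.358), which belong to that posterior estimate, lie above the TPM itself. On either estimate Muc2 was below 1 TPM, but its deposited upper bounds (1.05 in pup 1 and 1.23 in pup 2) lay above that limit. Of 7 intestinal goblet cell genes read beside Muc2, 5 were detected, among them the factor Spdef, against 61.2% of all genes. Atoh1, a factor of the secretory lineage, had 8 reads in pup 1 and 5 in pup 2, and Retnlb had 0 and 2.

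Muc16, the largest membrane mucin and a ligand of mesothelin, was not found by its gene identifier. A short transcript that the later annotation names Muc16-201 (ENSMUST00000034653.6, chr9:18495455-18512885) was quantified under another gene identifier, ENSMUSG00000032134.6. It had 1.73 TPM in pup 1 and 1.56 in pup 2 (1.65 ± 0.120, SD, n = 2), from 67 and 58 reads. It is 1035 nt long with 9 exons, whereas the long model Muc16-204 has 25437 nt and 78 exons and was not in the annotation used for the tables, so no level of full-length Muc16 is given. Mesothelin (Msln), its partner and a mesothelium marker, had 52.1 TPM in pup 1 and 40.4 in pup 2.

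Neighbours in the order Muc1, Muc5b, Muc6, Muc13, Muc15, Muc5ac, Muc4, Muc20, Muc2 were separated in both pups by the deposited lower and upper TPM bounds, with 2 exceptions. The bounds of Muc5ac and Muc4 overlapped in both pups, and so did those of Muc20 and Muc2. The order of these pairs is therefore not settled within a library. On the authors' posterior means, Muc2 (0.60 and 0.76 TPM) stood above Muc20 (0.44 and 0.52) in both pups, and Muc5ac and Muc4 were equal at 2.48 TPM in pup 1. The bounds surround the posterior means, and the TPM of Muc5b lay slightly above its own upper bound in both pups.

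**Figure D1:**
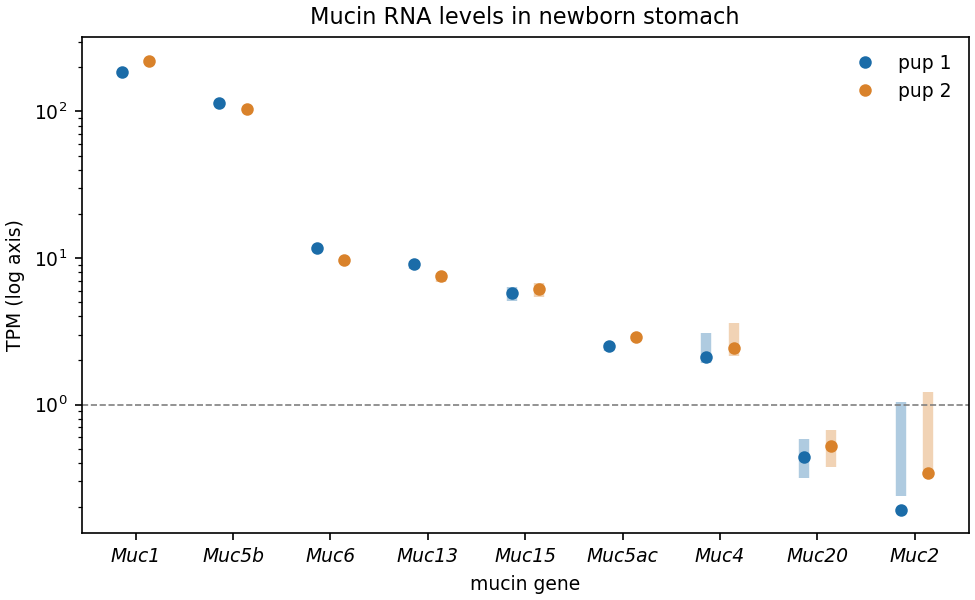
TPM (log axis) of the 9 mucins found by gene identifier, in pup 1 (blue, left) and pup 2 (orange, right); points are TPM values, pale bars the deposited lower to upper bounds, and the dashed line marks 1 TPM. Muc1 and Muc5b stand above 100 TPM in both pups, and the points of Muc20 and Muc2 below 1, though the bars of Muc2 cross that line.

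The order by reads differed from the order by TPM, because mucin transcripts vary in length. Muc1 made up 59.2% ± 4.51 of the summed mucin TPM but 16.6% ± 2.62 of the mucin reads (SD, n = 2). Muc5b, whose single annotated transcript is 14964 nt long against 2242 nt for the coding Muc1 transcript, made up 31.9% ± 3.57 of the mucin TPM and 75.8% ± 2.31 of the reads. The 4 gel-forming mucins summed to 129 TPM in pup 1 and 118 in pup 2 (123 ± 7.74), which was 35.9% ± 4.08 of the mucin TPM and 81.2% ± 2.57 of the mucin reads. The 5 others summed to 203 TPM in pup 1 and 239 in pup 2 (221 ± 25.3). By number of transcripts the membrane mucins were therefore ahead in both pups, and by reads the gel-forming mucins were. All 9 together took 0.176% of the reads of pup 1 and 0.167% of those of pup 2.

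**Figure D2:**
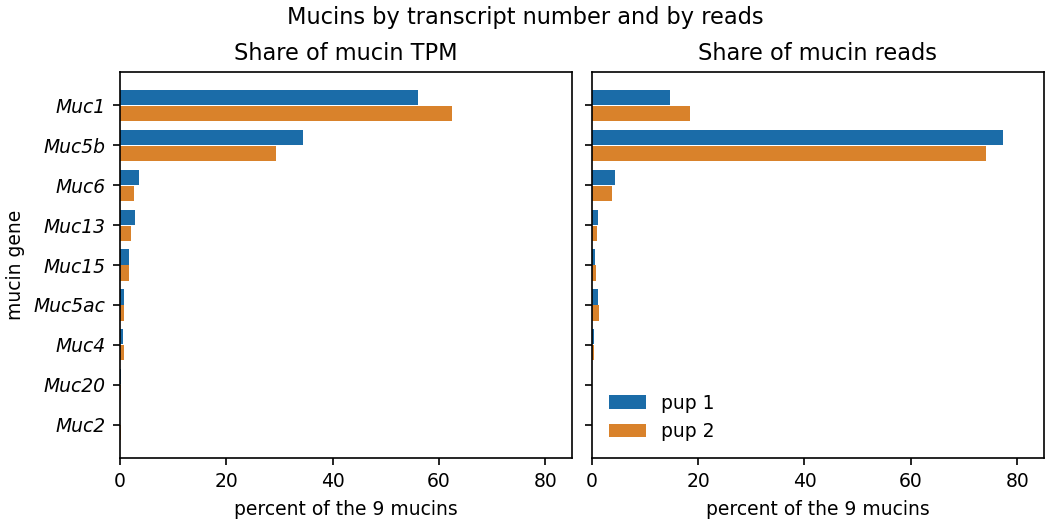
Percent of the summed TPM (left panel) and of the summed expected counts (right panel) of the 9 mucins held by each gene, in pup 1 (blue, upper bar) and pup 2 (orange, lower bar). Muc1 leads by TPM, with a mean of 59.2%, and Muc5b by reads, with a mean of 75.8%.

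The share of serine, threonine and proline codons was read from the coding sequence. Glycosylation itself was not measured, and no such share over all genes was computed. Serine, threonine and proline codons made up 44.1% of the Muc1 coding sequence, 44.8% of that of Muc4, 41.1% of that of Muc6, 38.1% of that of Muc13, 34.1% of that of Muc15, 33.8% of that of Muc5b and 31.2% of that of Muc5ac. They were 16.5% of the Muc2 model (Muc2-207, an incomplete reading frame) and 20.2% of the short Muc16-201. Muc5b and Muc6 each have 1 very large exon with a higher share than the whole coding sequence: exon 31 of Muc5b is 8019 bases long with 42.4% such codons, and exon 31 of Muc6 is 4329 bases long with 57.3%. Tandem repeats were searched for in the GENCODE coding sequences as runs in which a base matched the base 1 unit further on in at least 75% of positions. They were found in Muc1, Muc4, Muc5ac, Muc13 and Muc20. For 3 detected mucins, the run of 3 consecutive units that were most alike is shown. Capitals mark bases that differ from the first unit shown.
Muc1 unit 1 (exon 2, chr3:89229979-89230038, mm10, plus strand): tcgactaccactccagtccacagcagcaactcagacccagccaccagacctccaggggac
Muc1 unit 2 (chr3:89230039-89230098): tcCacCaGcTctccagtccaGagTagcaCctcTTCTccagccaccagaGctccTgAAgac
Muc1 unit 3 (chr3:89230099-89230158): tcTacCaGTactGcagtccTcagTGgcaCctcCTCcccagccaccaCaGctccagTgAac
Muc5ac unit 1 (exon 31, chr7:141808651-141808698, mm10, plus strand): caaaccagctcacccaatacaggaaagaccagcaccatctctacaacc
Muc5ac unit 2 (chr7:141808699-141808746): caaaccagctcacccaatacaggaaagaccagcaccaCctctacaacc
Muc5ac unit 3 (chr7:141808747-141808794): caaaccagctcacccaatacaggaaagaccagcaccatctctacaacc
Muc13 unit 1 (exon 2, chr16:33799001-33799081, mm10, plus strand): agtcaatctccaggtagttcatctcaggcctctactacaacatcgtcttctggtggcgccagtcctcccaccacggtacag
Muc13 unit 2 (chr16:33799082-33799162): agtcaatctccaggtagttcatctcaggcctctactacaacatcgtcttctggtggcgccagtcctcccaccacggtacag
Muc13 unit 3 (chr16:33799163-33799243): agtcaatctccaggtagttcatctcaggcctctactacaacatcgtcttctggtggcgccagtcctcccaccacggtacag

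The 60-base Muc1 unit was diverged, with 15 and 16 base differences in units 2 and 3. The 48-base Muc5ac unit had 1 and 0 differences, and the 81-base Muc13 units shown were identical. As the most alike units were picked, these differences do not describe the rest of each tract. The Muc5ac repeat tract covered 1220 coding bases, or 25.4 unit lengths, and 69.2% of its codons were for serine, threonine or proline; the Muc13 tract covered 689 bases with 63.3% and the Muc1 tract 202 bases with 62.1%. No 100-base window of Muc1, Muc2, Muc5ac, Muc5b, Muc6 or Muc15 occurred in another gene's transcripts. How reads within identical repeat units were placed along a transcript was not tested.

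Whether transcripts that hold the repeat were the ones in use was read from the isoform shares, the percent of a gene's TPM on each transcript. Muc5ac-202, a 10752 nt transcript that includes the whole repeat tract, held 67.7% of the Muc5ac TPM in pup 1 and 75.0% in pup 2 (71.4% ± 5.19, SD, n = 2). Muc5ac-203, of 8505 nt, keeps 1.07% of the tract and held the other 32.3% and 24.98%. For Muc1 the coding transcript Muc1-201, with all of the tract that passed the 75% match limit, held 77.2% of TPM in pup 1 and 77.3% in pup 2. The rest of Muc1 was on short non-coding models, Muc1-202 (476 nt, 20.0% and 18.7%) and Muc1-203 (2.78% and 4.02%). By reads, the coding transcript held 95.04% of Muc1 in pup 1 and 95.02% in pup 2.

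Muc4 was the exception among the detected mucins. Its largest share of TPM, 49.6% in pup 1 and 45.0% in pup 2, was on Muc4-202, a non-coding model of 1348 nt, and all protein-coding models together held 27.6% and 33.9%. By reads, the coding models held 15.5% in pup 1 and 53.8% in pup 2. The coding models alone had a mean of 0.70 TPM, below the detection limit of 1 TPM. The detection of Muc4 therefore rests on its non-coding models as well. The median protein-coding share over 9042 detected genes with at least 2 transcripts was 94.9%. The Muc4 repeat, with a unit of 372 bases, is contained in 2 transcripts: the coding Muc4-201 (11277 nt) had 0 reads in pup 1 and 112 in pup 2, and Muc4-206 (10805 nt, annotated as non-coding) had 213 and 77.78. Together they held 67.5% of the Muc4 reads in pup 1 and 65.3% in pup 2, but 22.9% and 18.0% of its TPM. The division of reads between the pair is uncertain, since the deposited TPM bounds of Muc4-206 overlapped between the pups (0.162 to 0.538 in pup 1, 0.0209 to 0.419 in pup 2) and those of Muc4-201 reached from near 0 to 0.281 and 0.400. On posterior means, Muc4-206 held 15.4% and 7.46% of the gene and Muc4-201 held 3.85% and 7.89%. Their summed share of reads was nearly the same in each pup.

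Muc6 was spread over 3 coding transcripts in like proportions in both pups. Muc6-203 held 58.9% in pup 1 and 55.5% in pup 2, Muc6-201 held 31.5% and 33.2%, and the 5087 nt Muc6-202, whose largest exon is 771 bases long, held 9.64% and 11.3%. Muc15-203 held 50.4% of the Muc15 TPM in pup 1 and 43.3% in pup 2, and its deposited bounds were wide (1.76 to 3.48 TPM in pup 1, 1.49 to 3.51 in pup 2). Muc13-201 carried all reads given to Muc13 in both pups, though on posterior means Muc13-202 held 5.85% in pup 1 and 8.25% in pup 2. The leading transcript was the same in both pups for 6 of 6 detected mucins with at least 2 transcripts, against 91.7% of such protein-coding genes.

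**Figure D3:**
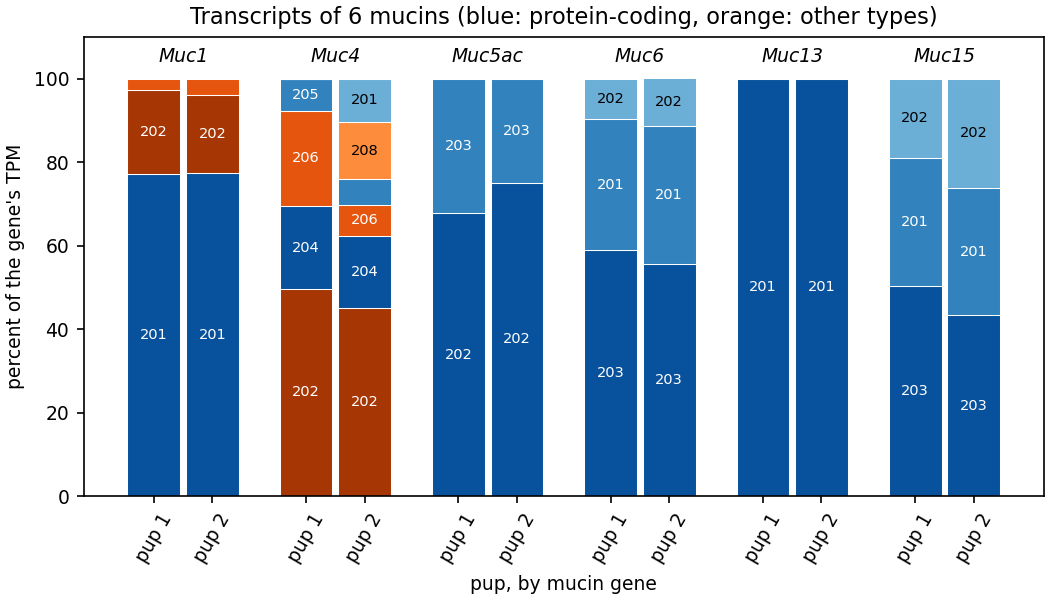
Percent of each gene's TPM on each annotated transcript in pup 1 (left bar) and pup 2 (right bar) for the 6 detected mucins with more than 1 transcript; blue stands for protein-coding and orange for other transcript types, with transcript numbers written on the larger shares. Muc4 is mostly orange (coding share 27.6% in pup 1, 33.9% in pup 2), the others mostly or all blue.

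The 4 gel-forming mucins lie side by side within 239629 bases of chromosome 7. In order they are Muc6 on the minus strand, then Muc2, Muc5ac and Muc5b on the plus strand, with gaps of 35020, 34278 and 19838 bases. Along this order the mean TPM was 10.7, 0.265, 2.70 and 109, so levels differed widely within the cluster. The genes on both sides, the endocytic adaptor gene Ap2a2 (25.2 TPM in pup 1, 26.0 in pup 2) and the innate immune adaptor gene Tollip (29.9 and 29.2), differed little from each other. Muc5b exceeded its direct neighbour Tollip, and Muc6 stood below its neighbour Ap2a2, in both pups.

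**Figure D4:**
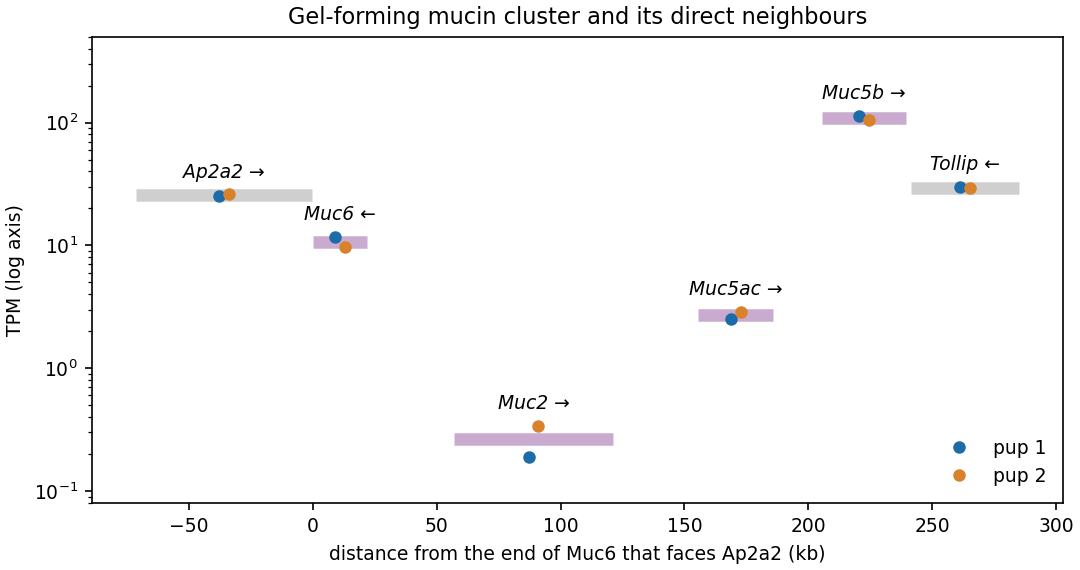
Position along the chromosome 7 mucin cluster (kilobases from the end of Muc6 that faces Ap2a2) against TPM on a log axis; each bar is a gene drawn to scale at its mean TPM (purple for mucins, grey for flanking genes), arrows give the strand, and points are pup 1 (blue, left) and pup 2 (orange, right). Levels within the cluster run between a mean of 0.265 TPM for Muc2 and 109 TPM for Muc5b.

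Muc4 and Muc20 form a second pair on chromosome 16. Their gene spans overlap by 4973 bases on opposite strands, and 627 exonic bases belong to both genes. Of the 100-base windows of Muc4, 2.81% were shared with Muc20, and of those of Muc20, 8.45% were shared with Muc4. The sources used here do not say whether counting used the strand, so how reads from the shared bases were divided is not known. The deposited posterior SD of the counts was 0.26 reads in pup 1 and 0.51 in pup 2 for each gene. That is small even beside the 40 and 46.16 expected counts of Muc20. The direct neighbours Gm9556 (listed at 0) and Smbd1 (0.17 TPM in each pup) were low as well.

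Promoter windows of 250 bases before and 50 after a start were present in RefSeq (GRCm38.p6) for 7 of the 10 mucins, as 8 windows. Muc5ac, Muc5b and Muc15 had no window. TATAAA, the core of the TATA box, and GGGCGG, a GC box core, were each searched on both strands; these motifs do not overlap. TATAAA was found in 3 of the 8 windows (those of Muc1, Muc2 and Muc4) and in 13.6% of 32851 promoter windows of that length. The match lies 36 bases before the start in Muc4 but 174 bases before it in Muc2. GGGCGG was found in 2 of the 8 (Muc1 and Muc2) and in 35.7% of all. Muc1, the most abundant mucin by TPM, has TATAAA 31 bases before its start and GGGCGG at 91 and 49 bases before it. These matches are descriptions of the sequence and not of factor binding. The 250 bases upstream of Muc1 are shown with the motifs in capitals.
Muc1 promoter (chr3:89228806-89229055, GRCm38.p6, plus strand): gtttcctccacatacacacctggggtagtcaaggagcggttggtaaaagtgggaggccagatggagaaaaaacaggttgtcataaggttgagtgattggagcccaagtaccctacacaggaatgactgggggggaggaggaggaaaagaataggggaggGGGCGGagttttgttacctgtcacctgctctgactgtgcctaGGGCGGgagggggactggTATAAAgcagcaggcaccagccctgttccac

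The pups were compared by their TPM and the deposited bounds. A gene was called different where the bounds of the pups did not overlap, the ratio reached 1.5-fold and the mean count was at least 10. None of the 9 mucins (0) was called different, against 2.03% of 15707 protein-coding genes; this rule involves no p-value, since each pup is a single library. With the bounds alone and no fold limit, 5 of the 9 differed, against 18.9% of genes. Bounds separate more readily at higher read counts, and the 18.9% is not matched to the counts of the mucins. These bounds describe the uncertainty of assigning and counting reads within a library and do not cover variation between animals. Muc5b, Muc6 and Muc13 were then higher in pup 1, by 0.12, 0.25 and 0.25 on the log2(TPM + 1) scale. Muc1 and Muc5ac were lower in pup 1, with log2 ratios of -0.26 and -0.15.

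The log2 ratio of Muc4 was -0.14 with overlapping bounds, and its sign turned to 0.09 on edgeR's TMM-scaled counts and 0.10 on DESeq2-scaled counts. The effective length that converts reads into TPM was 3628 bases for Muc4 in pup 1 and 3027 in pup 2. Muc15 had a log2 ratio of -0.07 and Muc20 one of -0.08, both with overlapping bounds. The median absolute log2 ratio was 0.15 over the 7 detected mucins and 0.09 over 13125 detected genes.

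**Figure D5:**
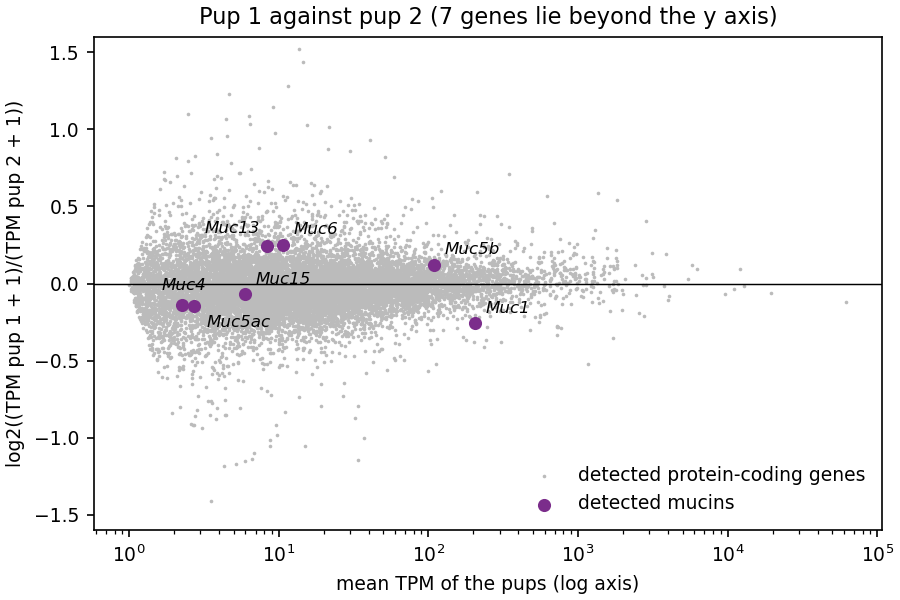
Mean TPM (log axis) against log2((TPM pup 1 + 1)/(TPM pup 2 + 1)) for 13125 detected protein-coding genes (grey) and the 7 detected mucins (purple); 7 genes lie beyond the axis limits of ±1.6. Mucin values run between -0.26 for Muc1 and 0.25 for Muc6.

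Markers of the stomach's own epithelia were present. The 5 surface mucous cell genes and the 7 squamous (forestomach) genes were all detected, against 61.2% of all genes. Tff1 had 12874 TPM in pup 1 and 13022 in pup 2, and Krt4 had 3841 and 4134. All 7 squamous genes had a lower TPM in pup 1, the direction of Muc1 (sums of 11834 TPM in pup 1 and 13157 in pup 2), as did 58.4% of all detected genes. Of these 7, 6 had bounds apart, and Krt14 had overlapping bounds and more reads in pup 1 (14908.56) than in pup 2 (14256.48). Of the 5 surface mucous cell genes, 2 had a higher TPM in pup 1 and 3 a lower one. The 4 detected neck and gland genes, of 6 on the list, had a higher TPM in pup 1, the direction of Muc6. Of these 4, Tff2 and Gkn3 had bounds apart, and the bounds of A4gnt and Glipr1 overlapped. Aqp5, below the detection limit, was the gene of that list called different and went the other way (0.55 TPM in pup 1, 1.14 in pup 2). The part of these cell types in the mucin values was not tested. Because Muc5b is known from airway and salivary glands, markers of those tissues were read beside it. Of 5 airway and lung genes 2 were detected, with Scgb1a1 at 10.8 TPM in pup 1 and 9.28 in pup 2, while the defining factor Nkx2-1 had 0 and 2 reads, and the summed level of the list was 14.7 and 13.1 TPM. Of 5 salivary genes only Amy1 was detected (1.83 and 1.95 TPM), Bpifa2 had 0 and 1 reads, Prol1 and Smr3a had 0 in both pups, and the list summed to 2.38 and 3.13 TPM.

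Proteins that fold mucins or are co-secreted with them included several very abundant products. Of 19 such genes, 18 were detected, against 61.2% of all genes; the median of their mean TPM was 36.0. Agr2, a disulphide isomerase needed for mucin folding, had 1317 TPM in pup 1 and 1169 in pup 2. The 3 highest were the trefoil peptide Tff1, the secreted protein Bpifb1 (9352 and 9811 TPM) and the gastrokine Gkn2 (5460 and 5341). Of the 19, 2 were called different between the pups (2.03% of all genes were), both higher in pup 1 and both typical of intestinal goblet cell mucus. Clca1, a secreted mucus-processing protein, had 21.7 TPM in pup 1 and 7.36 in pup 2 (log2 ratio 1.44), and Fcgbp, a mucin-like gel component, had 27.8 and 14.7 (0.87). Muc2, the mucin they accompany in the intestine, had a lower TPM in pup 1, with overlapping bounds. The other detected goblet genes were Tff3 (9.02 and 7.09 TPM), Spdef (27.3 and 24.6) and Zg16 (1.58 and 1.73).

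The enzymes that start and build the O-linked sugars were mostly present. Of 20 enzymes that start O-glycans or make their cores, 16 were detected, against 61.2% of all genes, and 0 were called different, against 2.03%; over so few genes a count of 0 is near that background. Gcnt3, which makes the branched cores of mucins, had 65.5 TPM in pup 1 and 69.6 in pup 2, and was the highest of the list. Galnt12, a starting enzyme, had 49.8 and 51.4, and C1galt1c1, the chaperone of the core 1 enzyme, had 45.7 and 45.6. B3gnt6, which makes the core 3 structure typical of the colon, had 0.20 and 0.22 TPM. Of 20 elongation and capping genes, 13 were detected, which is near the 61.2% of all genes, and 0 were called, against 2.03%. B3gnt3 led with 36.3 TPM in pup 1 and 36.7 in pup 2, followed by the sulphate transporter Slc26a2 (26.0 and 29.1) and the sialyltransferase St6galnac2 (18.9 and 22.5). A4gnt, which adds the terminal sugar carried by gland mucin Muc6, had 3.90 and 3.73 TPM, and Fut2, a fucosyltransferase that caps surface mucin sugars, had 17.4 and 19.4. St6galnac1 had 0 TPM in pup 1 and 0.01 in pup 2.

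Of 18 transcription factors tied to mucous cells, 15 were detected, against 61.2% of all genes. Elf3 led with 131 TPM in pup 1 and 139 in pup 2, followed by Klf4 (75.4 and 85.2) and Foxq1 (55.1 and 72.6), a factor needed in mice for Muc5ac in the stomach surface. Of the 15 detected factors 10 had a lower TPM in pup 1, Foxq1 among them, as did 58.4% of all detected genes. A link between Foxq1 and the Muc5ac level was not tested. Spdef, a factor of mucous secretory cells, had 27.3 and 24.6 TPM. Foxa1 was the only factor called different (2.03% of all genes were), with 13.8 TPM in pup 1 and 24.6 in pup 2 (log2 ratio -0.79). Of the 3 factors that were not detected, Cdx1 and Cdx2 are intestinal and Atoh1 belongs to the secretory lineage of the gut.

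All 13 genes that encode known partners of membrane mucins were detected, against 61.2% of all genes. Of these, 0 were called different, against 2.03% of all genes, and over so few genes a count of 0 is near that background. The galectin Lgals3, a lectin that binds mucin sugars, had 348 TPM in pup 1 and 378 in pup 2. Ezr, which links membrane proteins to the cortex, had 248 and 257, and Ctnnb1, which binds the tail of Muc1, had 150 and 160. Erbb2, the receptor that binds Muc4, had 23.1 and 26.4 TPM, and Met, the receptor tied to Muc20, had 3.82 and 3.46. Each of these receptors was therefore more abundant, per length, than the mucin with which it is paired.

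Among 18 other mucin and mucin-like genes, 17 were found and 7 detected, against 61.2% of all genes. Of these, 0 were called different, against 2.03% of all genes. Mucl3, a mucin-like gene, stood above all the mucins described here, with 660 TPM in pup 1 and 799 in pup 2 (729 ± 98.0, SD, n = 2; log2 ratio -0.27), so its mean was higher than the 344 ± 17.6 TPM of the 9 mucins together. Cd164, a sialomucin of many cell types, had 96.1 and 99.8 TPM, and Mcam, an adhesion molecule of vessel and muscle cells, had 38.1 and 37.5. Muc3, a membrane mucin of the intestine, had 0.60 and 0.65 TPM, and Muc19, a gel-forming mucin of salivary glands, had 3 reads in each pup.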

How the data were processed

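Total RNA from 2 stomachs was sequenced, 1 library per pup. The deposited gene and transcript tables hold expected counts, TPM with posterior means and lower and upper bounds, and isoform percent, per the file headers; the deposited text names mm10 and GENCODE M4. The sources used here name no aligner or quantifier. Gene symbols, coordinates and transcript types came from GENCODE M21, matched on identifiers without version, and 884 Ensembl gene IDs had no match; 26248 tRNA entries were left out. All 33 mucin transcripts had the same length in both annotations.

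Log2 ratios used TPM plus a pseudocount of 1. TMM factors came from edgeR 4.0.16 and size factors from DESeq2 1.42.0 (R 4.3.3), on rounded expected counts; tables were handled with Python 3.11.15 and pandas 2.3.3, and exact intervals with scipy 1.17.1. All 10 mucins were named, with the 3 most abundant and any called gene of each related list, and genes next to mucin clusters; a few further list genes were named after their values were seen. Members and lists were chosen with earlier results of these data known. Alternatives covered thresholds, pseudocounts, scaling, estimates and gene models.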

Additional observations from a re-analysis of the deposited data

How the results depend on the processing

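With 1 library per pup, no difference between conditions can be tested, and the sources used here give no value for technical spread. No paired analysis was possible because the design holds a single group. Without either pup, 7 mucins stayed detected and the summed TPM was 331.8 to 356.7; a pup ratio cannot be computed without one of the pups. At a limit of 0.1 TPM 9 mucins were detected, and at 5 TPM 5 were. On protein-coding transcripts alone, Muc4 had a mean of 0.70 TPM and fell below the limit of 1 TPM. The summed TPM of 344 became 407.751 when TPM was rescaled over protein-coding genes alone and 296.225 when only protein-coding transcripts were summed. It became 1073.51 with Mucl3 added, an alternative chosen after seeing the data. So were the count of Muc16 through its transcript identifier (8 mucins detected, summed TPM 345.895) and the isoform shares from posterior means, which moved the main transcript share of 5 of 9 mucins. The number of mucins called different between the pups was 5 with bounds alone, and 0 at 2-fold, at a mean count of at least 100, with no count minimum and with exact Poisson intervals of TMM-scaled counts. The log2 ratio kept its sign for 9 of 9 mucins under both other pseudocounts and the posterior mean, and for 8 of 9 under TMM and DESeq2 scaling, where Muc4 turned to 0.09 and 0.10.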
